A study of Homo sapiens with 4 samples.

Results

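The S100 proteins are small calcium-binding proteins, and 10 of their genes were examined here out of the 48162 genes in the deposited table: S100A2, S100A3, S100A4, S100A6, S100A10, S100A11, S100A13, S100A14, S100A16 and S100P. The genes were picked by symbol, and each symbol matched a single row. The libraries were made from MDA-MB-231 cells, an established human breast cancer line of basal, mesenchymal-like character, cultured in serum-containing medium. Of the 4 libraries, 2 came from cells given MGH-CP1, an inhibitor of TEAD palmitoylation, for 24 h and 2 from cells given vehicle control. The sample labels give the dose of MGH-CP1 as 10 µM, whereas the methods state the same figure in mM. Nothing in the labels says whether the libraries of a group came from separate cultures, so the spread between them may be technical, and the data describe a single cell line at a single time and dose.

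An S100 protein binds calcium through a pair of EF-hand loops, usually works as a dimer, and on binding calcium exposes a surface that grips other proteins. Members act inside the cell on the cytoskeleton, on annexins and on p53, and several are secreted and act on receptors such as RAGE. Most human S100 genes lie together on the long arm of chromosome 1, in the epidermal differentiation region, and their expression is widely studied in breast and other cancers. S100A6 belongs to a list of genes that the study selected for being raised by TEAD–YAP/TAZ blockade, partly on these libraries. Its rise is therefore not independent evidence, and the question asked here was whether the S100 genes beside it followed.

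The start regions of 4 members are shown first, because they hold S100A6, its neighbours S100A4 and S100A2, which rose with it, and S100A16, the member whose windows contain the DNA core bound by TEAD factors. The sequences are RefSeq windows of the GRCh38.p14 build, from 250 bases before to 50 bases after the transcription start, written 5′ to 3′ on the minus strand of chromosome 1. Capitals mark 3 motifs searched on both strands: the TEAD core CATTCC, the AP-1 site TGANTCA and the TATA element TATAA, of which the last was added after the windows had been read.
S100A6, chr1:153535942-153536241: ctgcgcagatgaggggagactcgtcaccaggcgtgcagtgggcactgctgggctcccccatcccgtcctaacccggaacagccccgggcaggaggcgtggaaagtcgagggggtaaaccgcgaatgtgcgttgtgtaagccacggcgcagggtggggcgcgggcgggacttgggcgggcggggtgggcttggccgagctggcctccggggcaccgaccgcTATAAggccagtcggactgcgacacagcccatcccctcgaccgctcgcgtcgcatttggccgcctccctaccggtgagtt
S100A4, chr1:153545757-153546056: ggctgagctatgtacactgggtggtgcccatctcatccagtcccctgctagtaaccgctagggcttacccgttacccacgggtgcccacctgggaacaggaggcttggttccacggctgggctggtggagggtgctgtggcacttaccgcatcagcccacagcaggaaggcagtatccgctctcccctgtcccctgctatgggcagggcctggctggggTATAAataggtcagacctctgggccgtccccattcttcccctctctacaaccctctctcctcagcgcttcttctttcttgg
S100A2, chr1:153565795-153566094: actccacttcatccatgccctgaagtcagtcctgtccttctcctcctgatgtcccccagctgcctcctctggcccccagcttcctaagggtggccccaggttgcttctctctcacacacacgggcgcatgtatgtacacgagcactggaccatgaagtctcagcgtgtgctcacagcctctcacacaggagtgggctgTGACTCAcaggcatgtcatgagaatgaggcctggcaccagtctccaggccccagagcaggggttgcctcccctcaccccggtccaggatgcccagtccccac
S100A16, chr1:153613088-153613387: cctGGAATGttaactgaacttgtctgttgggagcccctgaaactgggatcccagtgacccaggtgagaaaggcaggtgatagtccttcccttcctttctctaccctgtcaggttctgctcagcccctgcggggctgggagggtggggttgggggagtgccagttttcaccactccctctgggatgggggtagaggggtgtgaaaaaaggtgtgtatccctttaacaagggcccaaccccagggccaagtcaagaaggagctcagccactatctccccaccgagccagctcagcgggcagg

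All 10 members had at least 1 such window, 14 in total. The TEAD core was found in 2 of the 14, both of them alternative starts of S100A16, where 14% of all 35116 windows in the RefSeq table hold it. In the window shown it begins at position -247. The AP-1 site was found in 2 windows, at position -52 of S100A2 and at position -225 of S100A3, against 7.71% of all windows. A further S100A2 window, not shown, held none of the motifs. The S100A6 and S100A4 windows held neither of these motifs, and each had a TATA element, at positions -30 and -31, which 20.4% of all windows and 5 of the 14 S100 windows contain. S100A5, a further gene of the cluster described below, had both a TEAD core (-155) and an AP-1 site (-17) in 1 of its windows. A match is only a match of letters, and an absent match says nothing of sites elsewhere.

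In these cells the S100 genes fell into abundant and nearly silent members. The level is given in FPKM, fragment counts scaled by gene length and by the library total, so that genes of different length can be set side by side. In the vehicle control libraries S100A6 was by far the most abundant, with 2093 ± 308 FPKM (SD, n = 2), and it ranked 3 among all listed genes in both libraries. It was followed by S100A11 (576 ± 10.3 FPKM), S100A4 (545 ± 24.2), S100A10 (378 ± 26.6) and S100A16 (274 ± 7.39). S100A2 (30.9 ± 4.68 FPKM), S100A3 (23.5 ± 2.95) and S100A13 (15.9 ± 0.468) were lower, and S100A14 (0.193 ± 0.0453) and S100P (0.107 ± 0.0652) were close to 0. No neighbours in this order among the upper 8 genes overlapped between their libraries. After MGH-CP1 the order was the same but for S100A4, which stood above S100A11 in both libraries.

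**Figure D1:**
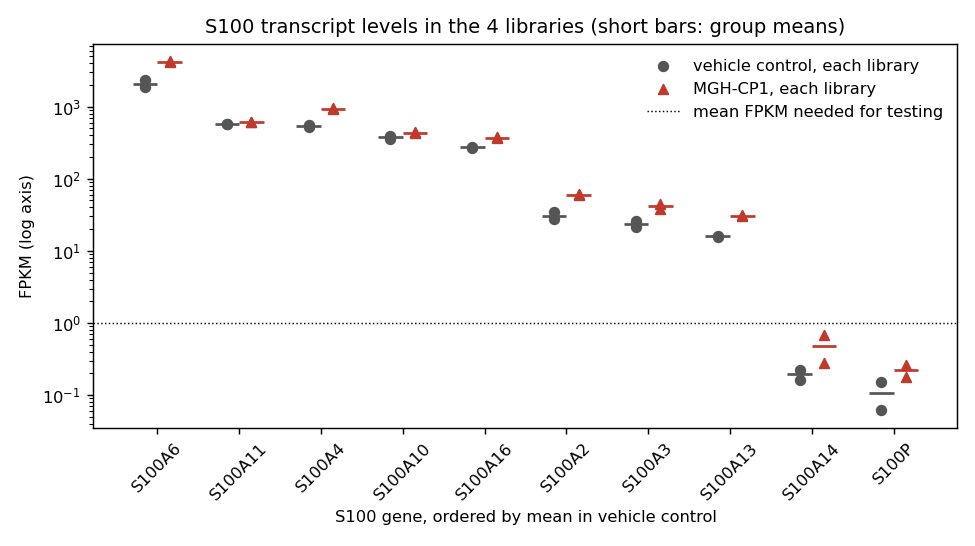
FPKM of the 10 S100 genes on a log axis in each vehicle control library (circles) and each MGH-CP1 library (triangles), with short bars for the group means of 2 libraries and a dotted line at the mean FPKM of 1 needed for testing. The triangles of S100A6, S100A4, S100A2, S100A3 and S100A13 sit clearly above the circles, while those of S100A11 nearly touch them, and S100A14 and S100P lie below the line.

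After MGH-CP1, 7 of the 8 members that could be tested rose and none fell. S100A6, which the study selected partly on these libraries, is counted among the 7 and in the median below. Among all 12080 genes tested 27.1% were called higher and 23.8% lower (limma on log2(FPKM + 1), adjusted p under 0.05 over all genes tested). The median log2 fold change of the 8 members was 0.79, beside 0.01 for all genes tested. All 8 had higher FPKM in either treated library than in either untreated one, as had 39.8% of the genes tested. The exact permutation test of a single gene gives p = 0.333 for such a separation, two-sided, the smallest value that 2 libraries against 2 allow, and the calls therefore depend on the variance estimate that limma borrows across genes. In a per-gene test that shares no variance 0 of the 8 passed the adjusted threshold, and with limma on all listed genes, low ones included, 2 of the 10 passed.

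S100A6, or calcyclin, binds annexins and the calcyclin-binding protein and is linked to proliferation. Its FPKM was 1875 and 2311 with vehicle and 4243 and 4163 with MGH-CP1. The treated libraries were close to each other, whereas the vehicle control libraries differed more, without reaching the treated ones. The ratio of the means was 2.01 and the log2 fold change 1.01 (standard error, SE, 0.09, limma adjusted p = 9.61e-05). An antisense gene, BX470102.3, overlaps S100A6 by 517 bases and held 6 to 12 fragments per library, where S100A6 held 32116 to 51397; whether the counting used strand is not given in the sources used here. The log2 fold change of S100A6 without any single library ranged from 0.86 to 1.16. Quantile normalization, which gives all libraries the same set of values, lowered it to 0.36, still called; S100A6 ranked 3 in each vehicle control library and 2 in each MGH-CP1 library, and that method sets the value by rank.

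S100A4, also called metastasin, binds non-muscle myosin IIA and promotes cell motility. Its FPKM was 528 and 562 with vehicle and 947 and 936 with MGH-CP1. The groups were well apart, and the replicates of each lay within a narrow range. The log2 fold change was 0.79 (SE 0.05, limma adjusted p = 2.79e-05), with a ratio of 1.73. S100A3, known best from the hair cuticle, lies within the span of S100A4 on the same strand, sharing 2044 bases. It had 21.4 and 25.6 FPKM with vehicle and 44.9 and 37.9 with MGH-CP1, and its log2 fold change was 0.79 (SE 0.10, limma adjusted p = 4.22e-04). S100A3 held 467 to 692 fragments in a library and S100A4 held 10142 to 12866. How reads in the shared stretch were assigned is not given in the sources used here, so the values of S100A3 are uncertain.

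S100A2, a mainly nuclear member that binds p53, had 27.6 and 34.2 FPKM with vehicle and 59.7 and 60.9 with MGH-CP1. As for S100A6, vehicle control replicate 2 was above replicate 1 and the treated libraries were nearly equal. The log2 fold change of S100A2 was 0.95 (SE 0.09, limma adjusted p = 1.13e-04). S100A13, which takes part in the non-classical release of FGF1 and interleukin-1α, had 16.3 and 15.6 FPKM with vehicle and 31.4 and 30.1 with MGH-CP1. Its groups did not overlap and its replicates were close, giving a log2 fold change of 0.91 (SE 0.06, limma adjusted p = 2.63e-05). On the opposite strand S100A13 overlaps CHTOP by 349 bases and S100A1 along the whole of that gene, 4112 bases. CHTOP, a chromatin-bound factor of mRNA export, had 19.9 and 20.5 FPKM with vehicle and 20.9 and 22.8 with MGH-CP1 and was not called (log2 fold change 0.10, adjusted p = 0.202 from limma), and S100A1 held 2 to 7 fragments per library.

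S100A16, a member found in many tissues, rose less. Its FPKM was 268 and 279 with vehicle and 374 and 372 with MGH-CP1, with a log2 fold change of 0.45 (SE 0.05, limma adjusted p = 1.66e-04). S100A10 does not itself respond to calcium, and with annexin A2 it forms a complex that binds plasminogen at the cell surface. It had 360 and 397 FPKM with vehicle and 442 and 425 with MGH-CP1. The log2 fold change of S100A10 was 0.20 (SE 0.06, limma adjusted p = 0.0233), and the call was lost without vehicle control replicate 1 (0.13), without MGH-CP1 replicate 1 (0.17) and without MGH-CP1 replicate 2 (0.22), with adjusted p from 0.0597 to 0.137. It was also lost with quantile normalization (0.09), when the trend of each library on gene length was removed (0.10), in limma without the variance trend (adjusted p = 0.0741), without the filter on low values and in the per-gene test. S100A11, a partner of annexin A1, had 569 and 583 FPKM with vehicle and 611 and 607 with MGH-CP1. Its log2 fold change was 0.08 (95% interval -0.03 to 0.19, adjusted p = 0.182 from limma), so a change of the size seen for S100A16 lies outside the interval.

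S100A14 and S100P, which are often raised in epithelial tumours, did not reach the mean of 1 FPKM required for testing. S100A14 had 5 and 7 fragments with vehicle and 15 and 6 with MGH-CP1, or 0.161 and 0.225 against 0.684 and 0.280 FPKM. S100P had 5 and 2 fragments with vehicle and 6 and 4 with MGH-CP1. In both genes the treated FPKM were above the untreated ones, but at these counts a change was not detectable: with all genes in the fit, the adjusted p from limma was 0.886 for S100A14 and 0.973 for S100P.

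Ordered by log2 fold change, the members ran S100A6, S100A2, S100A13, S100A3, S100A4, S100A16, S100A10 and S100A11. Over the 4 pairs of a treated and an untreated library, which share libraries, the changes of adjacent genes overlapped from S100A6 down to S100A4. That of S100A4 (0.74 to 0.84) lay above that of S100A16 (0.42 to 0.48), which lay above that of S100A10 (0.10 to 0.30), and S100A10 and S100A11 overlapped again. Set against S100A6 within the same library, S100A11 had 30.3% and 25.2% of the S100A6 level with vehicle and 14.4% and 14.6% with MGH-CP1. S100A2 stayed nearly level with S100A6, at 1.47% and 1.48% of it with vehicle and 1.41% and 1.46% with MGH-CP1.

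Because of the abundance of S100A6, the members took up a visible part of each library. S100A6 held 0.126% and 0.156% of the fragments with vehicle and 0.286% and 0.280% with MGH-CP1. The 10 members together held 0.302% ± 0.0279 (SD, n = 2) of the vehicle control fragments and 0.501% ± 0.00675 (SD, n = 2) of the MGH-CP1 fragments. Without S100A6 the other 9 went from 0.161% ± 0.00709 to 0.219% ± 0.00291 (SD, n = 2 each). In both counts the treated libraries were above the untreated ones (exact permutation test, two-sided, p = 0.333).

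**Figure D2:**
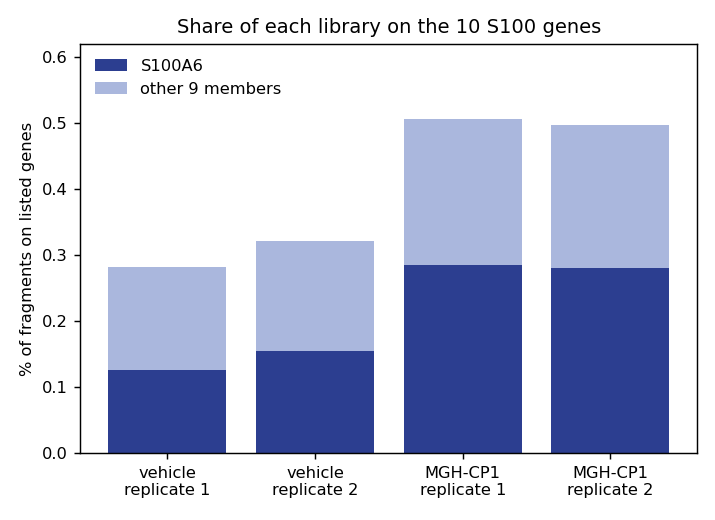
Percent of each library's fragments on listed genes that fell on S100A6 (dark) and on the other 9 S100 members (light), 1 bar per library. S100A6 rises from 0.126% and 0.156% with vehicle to 0.286% and 0.280% with MGH-CP1, and the light part grows less.

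Of the 10 members 9 lie on chromosome 1, in 2 separate places. In the coordinates of the deposited table, for which the submitters' processing notes name hg19, S100A6 (ENSG00000197956) occupies 153507075 to 153508720 on the minus strand. S100A4, S100A3, S100A2, S100A16, S100A14 and S100A13 follow it within 91.2 kb, measured between gene midpoints, and all are on the minus strand. S100A10 and S100A11 lie on the other side, at -1547 and -1495 kb. S100A6 itself had a log2 fold change of 1.01. The other tested members within 91.2 kb of it had 0.45 to 0.95, and the distant pair had 0.20 and 0.08. S100P, on chromosome 4, was not tested.

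The remaining S100 family comprised 11 genes, of which only S100A5 passed the filter. S100A5, whose midpoint is 4.03 kb from that of S100A6, had 6.03 and 6.57 FPKM with vehicle and 11.8 and 9.29 with MGH-CP1, and rose by a log2 fold change of 0.65 (SE 0.11, limma adjusted p = 1.48e-03). S100A8 and S100A9, which together form calprotectin and are typical of myeloid cells and inflamed epithelium, held at most 4 and 8 fragments in a library. S100A8 had 0 fragments in both vehicle control libraries, and 2 and 4 with MGH-CP1; S100A9 had 4 in each vehicle control library, and 0 and 8 with MGH-CP1. S100A1, S100A7, S100B, S100G and S100Z had between 0 and 7 fragments per library. S100A7A, S100A7L2 and S100A12, named here after their values were seen, had 0 in every library.

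Most tested genes of other kinds in a window around the S100 genes were not called. The window ran from 250000 bases before S100A10 to 250000 bases after S100A13 and held 98 genes outside the S100 family. Of the 14 tested, 1 was called higher (7.14%) and 2 lower (14.3%), beside 27.1% and 23.8% of all genes tested. The other 11 were not called, and the median log2 fold change was -0.02. On the side of S100A10 and S100A11 the tested neighbours lay -1774 to -1222 kb from S100A6. On the other side the nearest was CHTOP, at 105 kb, so none lay among the S100 genes beside S100A6. The changes on that side, in order of position, were 0.10, 0.11, -0.49, 0.13, 0.47 and -0.09. SLC27A3, an acyl-CoA synthetase of the fatty acid transport family, rose from 1.45 and 1.96 FPKM to 2.65 and 2.79 (log2 fold change 0.47, adjusted p = 0.0135 from limma). That call was lost without vehicle control replicate 1 or without MGH-CP1 replicate 2, when 0 neighbours were called higher, and without MGH-CP1 replicate 1 there were 3. ILF2, a double-stranded RNA-binding factor 131 kb from S100A6, fell from 138 and 133 FPKM to 96.2 and 95.9 (log2 fold change -0.49, adjusted p = 1.09e-04 from limma). FLG, which encodes filaggrin of the epidermal barrier, fell from 2.22 and 2.56 to 1.17 and 1.44 FPKM (log2 fold change -0.56, adjusted p = 5.56e-03 from limma). FLG-AS1 (-0.30), RP11-98D18.3 (0.30) and INTS3 (0.13) were not called, and RP11-98D18.3 held only 7 to 12 fragments per library. The difference between S100 genes and their neighbours was not itself tested.

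**Figure D3:**
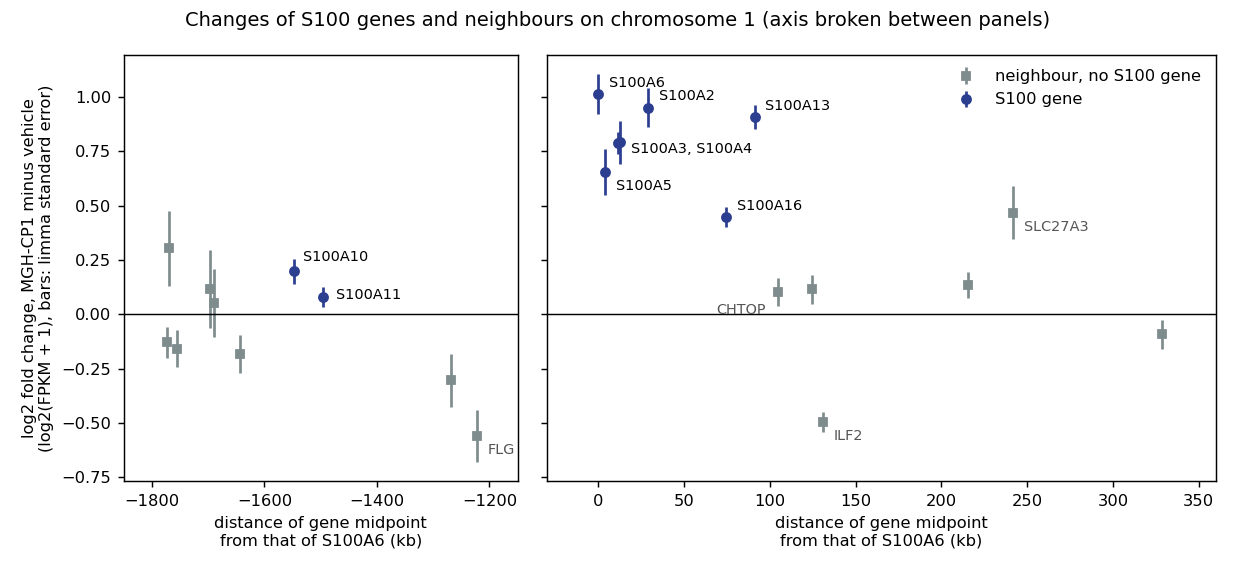
Log2 fold change after MGH-CP1 (log2(FPKM + 1), bars for the limma standard error) against the distance in kb of each gene's midpoint from that of S100A6 on chromosome 1, for tested S100 genes (circles) and tested neighbours (squares), with the axis broken between panels. S100A6 lies at 1.01 and the other S100 genes near it between 0.45 and 0.95. S100A10 and S100A11 lie at 0.20 and 0.08, and the squares between -0.56 and 0.47.

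Among the genes of proteins that S100 members bind, more were called lower than higher. Of 25 partner genes 21 were tested; 4 were called higher, 11 lower and 6 were not called, with a median log2 fold change of -0.13. These are 19.0% higher and 52.4% lower, beside 27.1% and 23.8% of all genes tested. MYH10, non-muscle myosin IIB, fell from 20.3 and 20.2 FPKM to 12.2 and 13.2 (log2 fold change -0.63, adjusted p = 1.38e-04 from limma). CACYBP is the calcyclin-binding protein, named for its binding of S100A6. It fell from 58.9 in both vehicle control libraries to 41.4 and 43.6 FPKM (log2 fold change -0.46, adjusted p = 2.17e-04 from limma). SYT1, a synaptotagmin released in a complex with S100A13, fell by 0.56 on the log2 scale. Its FPKM was 1.92 and 1.78 with vehicle and 0.786 and 1.08 with MGH-CP1. The MGH-CP1 mean, 0.931, was below 1, so SYT1 passed the filter only through the vehicle control libraries. With a mean FPKM of at least 5 required, 20 partners were tested, 5 called higher and 10 lower. MYH9, the myosin IIA heavy chain bound by S100A4, is named here after its values were seen; it had 330 and 352 FPKM with vehicle and 283 and 304 with MGH-CP1 (log2 fold change -0.22, adjusted p = 0.0125 from limma). Among the genes that rose were TLR4 (0.71), an innate immune receptor, ANXA11 (0.57) and BSG (0.30), a surface glycoprotein that binds secreted S100 proteins. The other 4 partners did not reach the filter. Without vehicle control replicate 1 or without MGH-CP1 replicate 1, the partners called lower numbered 7.

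Of the 14 annexin genes, 5 of which are also in the partner list, 12 were tested, 7 were called higher and 2 lower (58.3% and 16.7%, beside 27.1% and 23.8% of all genes tested), with a median log2 fold change of 0.19. The rises were led by ANXA9 (log2 fold change 1.04, adjusted p = 2.07e-04 from limma), with ANXA10 (0.61) and ANXA4 (0.59) next. The first 2 were low. ANXA9 had 3.38 and 2.62 FPKM with vehicle and 6.72 and 7.63 with MGH-CP1. ANXA10 had 1.16 and 1.44 with vehicle and 2.82 and 2.21 with MGH-CP1. With a mean FPKM of at least 5 required, 9 annexins were tested, 5 called higher and 2 lower. ANXA3 fell by 0.49 and ANXA2, the partner of S100A10, by 0.13 on the log2 scale (adjusted p = 0.0374 for ANXA2 from limma). ANXA2 had 536 and 525 FPKM with vehicle and 482 and 484 with MGH-CP1, and ANXA5 was not called (0.04). Without vehicle control replicate 1, or without either MGH-CP1 library, 1 annexin was called lower. Among 28 tested genes of other EF-hand proteins, such as calmodulins, calpains and reticulocalbins, 9 were called higher, 4 lower and 15 were not called, around a median of -0.02. The share called higher, 32.1%, was near that of all genes tested, and 14.3% were called lower. NUCB1 (0.48), CAPN1 (0.45) and PDCD6 (0.40) rose most; RCN2 (-0.40) and PLS3 (-0.27) fell, and STIM2 (-0.29) was not called. Without MGH-CP1 replicate 2 the number called lower was 2.

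**Figure D4:**
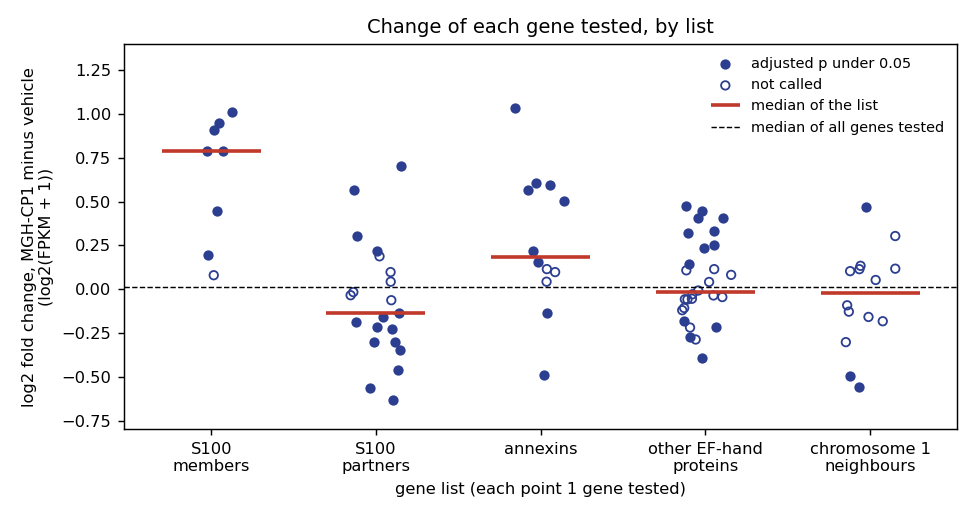
Log2 fold change after MGH-CP1 of each gene tested (log2(FPKM + 1)) in 5 lists, filled where the adjusted p was under 0.05, with a bar for the median of the list and a dashed line for the median of all genes tested. The S100 median, with S100A6 included, is 0.79. Those of the partners, annexins, other EF-hand proteins and chromosome 1 neighbours are -0.13, 0.19, -0.02 and -0.02.

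Of all genes tested, the 5 whose pattern over the 4 libraries lay nearest to that of S100A6, by Euclidean distance between centred log2(FPKM + 1) values, were PTOV1 (distance 0.0371), SLC34A3, MLXIPL, SH3D21 and PARP10 (distance 0.0685). PTOV1 had 8.92 and 11.2 FPKM with vehicle and 20.7 and 20.5 with MGH-CP1. MLXIPL had 0.383 and 0.646 with vehicle and 2.07 and 1.89 with MGH-CP1, and passed the filter only through the treated libraries. The ratios of the means of the 5, in the order given, were 2.06, 2.77, 3.85, 2.28 and 2.07, beside 2.01 for S100A6. The added 1 shrinks the change of low genes, so nearness on this scale is not likeness in ratio. S100A2 ranked 7 of 12079 in this order, S100A4 205, S100A3 210, S100A13 222, S100A16 1368, S100A10 3260 and S100A11 4856. The measure takes in the difference between replicates as well as the size of the change.

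The fragments on listed genes numbered 25455533 and 25508824 with vehicle, and fewer with MGH-CP1, at 17997221 and 17577930. These totals are not sequencing depth, for which the paper gives only a minimum for all libraries. Mitochondrial genes held 0.447% and 0.418% of the fragments with vehicle and 1.57% and 1.53% with MGH-CP1, and the part of either difference in the results was not tested; with mitochondrial genes left out of the totals 7 of 8 members were again called higher. Short genes leaned upward: of the 2957 tested genes as long as the tested members (594 to 2184 bases), 33.8% were called higher and 19.0% lower, with a median of 0.09. With the trend on gene length removed, a setting chosen after the data were seen, 6 of 8 members were called higher, S100A6 by 0.88, and S100A11 stood at -0.06, not called. The part of length in the results was not tested further. The genes CYR61, CTGF and ANKRD1, targets of TEAD–YAP, fell by 0.75, 0.66 and 0.66 on the log2 scale. VIM, CD44, CAV1, AXL and MSN, markers of this line, each had at least 149 FPKM in every library, although CAV1 and AXL fell by 0.49 and 0.76 on the log2 scale. ESR1, PGR and CDH1 stayed under 1 FPKM, while EPCAM and GATA3 had up to 16.4; of PTPRC, CD3E, CD68, COL1A1 and ALB, CD3E was at 0 throughout and the highest value was 2.56, of ALB in MGH-CP1 replicate 2.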

How the data were processed

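RNA of MDA-MB-231 cells was isolated with the RNeasy Mini Kit, poly-T selected, and read in paired ends at Novogene, with 2 libraries per group. The authors deposited FPKM per gene. CASAVA 1.8, STAR and hg19 are named in the submitters' processing notes; the counting tool and its use of strand are not given in the sources used here. FPKM multiplied by gene length were whole multiples of a single step per library for 100% of the values (tolerance 0.01), which gave fragments per gene, 17577930 to 25508824 per library. The methods name a Student's test per gene; here genes whose FPKM averaged 1 or more (12080) were compared on log2(FPKM + 1) with limma 3.58.1 in R 4.3.3 (trend; two-sided; residual degrees of freedom 2, prior 5.98). P-values were adjusted by Benjamini-Hochberg across these genes, and 0.05 was the threshold. The count of fragments served for shares, for counts of low genes and for limma voom. A fold change on this scale understates that of low genes.

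The members, lists, window and tests were chosen with earlier results of these data known. Partner, annexin and EF-hand lists were written from general knowledge. Named genes are the members, other family genes with any fragment, the 3 largest and 3 smallest changes of each list, genes overlapping a member, the 5 nearest to S100A6, and CYR61, CTGF and ANKRD1; markers were named as fixed. S100A7A, S100A7L2, S100A12 and MYH9 fall outside this rule and were named after their values were seen. PECAM1 was not analysed here. The script was tested on simulated data. Alternatives were other pseudocounts, filters, scalings and variance models, limma voom, the replicate number as a block and leaving out each library.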

Additional observations from a re-analysis of the deposited data

How the results depend on the processing

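The log2 fold changes of S100A6, S100A2, S100A3, S100A4, S100A13 and S100A16 were above 0 under every alternative, and all 6 were called under each except the absent filter and the per-gene test without shared variance. Of these, S100A4 and S100A13 were called without the filter as well. That of S100A11 was -0.064 with the trend on gene length removed, a setting chosen after the data were seen, and the cause was not tested.

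Without a filter on low values, where 48162 genes were tested, the calls were 605 higher and 490 lower over all genes; 2 members, 0 other S100 genes, 0 partners, 1 annexin, 2 EF-hand genes and 0 neighbours higher; and 0 partners, 1 annexin, 1 EF-hand gene and 1 neighbour lower. The per-gene test without shared variance called 9 genes higher and 4 lower in all, with 0 higher in each list, and 1 EF-hand gene and 0 partners, annexins and neighbours lower. Limma without the trend called 6 members higher, S100A10 being lost, and 7 partners and 1 annexin lower. Totals without mitochondrial genes gave 1 annexin lower, and quantile normalization 5 neighbours lower. The causes of these differences were not tested. A mean FPKM of at least 5 left 8 neighbours tested, 0 higher and 1 lower, because SLC27A3 and FLG were below that filter.

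Leaving out each library gave 6 to 7 members higher and 0 lower, 1 other S100 gene higher, 4 to 5 partners higher and 7 to 11 lower, 5 to 7 annexins higher and 1 to 2 lower, 7 to 8 EF-hand genes higher and 2 to 5 lower, 0 to 3 neighbours higher and 2 to 3 lower, and 2512 to 2991 genes higher and 2129 to 2549 lower in all.

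Same-numbered libraries share only a number (correlation of their deviations 0.0777); with the replicate block 3466 genes were called higher and 3052 lower, and 7 members higher. S100A14 and S100P, below the filter, held at most 15 fragments in a library.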
